A study of Homo sapiens with 6 samples.

Results

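The genes examined here were 48 that encode the machinery of cytoplasmic and nuclear mRNA decay, taken by symbol from the 56638 gene symbols counted in each sample. They comprised 10 genes of the CCR4-NOT deadenylase, the 2 TOB adaptors that bring it to messages, the 2 subunits of the PAN2-PAN3 deadenylase, 8 decapping factors, the 2 5'-3' exonucleases XRN1 and XRN2, 10 exosome subunits, 3 nucleases of the DIS3 family, 2 subunits of the Ski complex and 9 factors of nonsense-mediated decay (NMD). All 48 passed the filter on low counts, which kept 22452 symbols. RNA-seq had been done on HCT116, an established human colorectal cancer cell line, in 3 wild type (WT) samples and 3 samples with the METTL3 gene knocked out (METTL3-KO). METTL3 is the catalytic subunit of the enzyme that methylates adenosine in mRNA to m6A. All samples were grown in the same medium with serum, and the labels give them 1 common range of passages. The knockout is described as made with a lentiviral CRISPR vector with a single guide, puromycin selection and growth from a single cell, so the group would stand for 1 clone, and no control clone that had gone through the same selection was analysed here. The deposited count tables, however, name the groups NC and SiM3, not wild type and knockout, and siRNAs against METTL3 were also used in HCT116 cells in the study. The groups are called here as the labels call them, and whether the second group was the knockout clone or cells with METTL3 lowered in another way cannot be told apart from these counts. Nothing in the labels says that the 3 samples of a group were separate cultures. The p-values below therefore measure only the spread between these samples, which may be technical.

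In the cytoplasm most mRNAs are degraded from their ends. The poly(A) tail is first trimmed by PAN2-PAN3 and then by CCR4-NOT, after which the message is either decapped by DCP2 and digested from the 5' end by XRN1 or digested from the 3' end by the exosome, which is fed by the Ski helicase complex. NMD is a surveillance branch in which the helicase UPF1, bridged by UPF2 and UPF3 proteins to exon junctions downstream of a stop codon and phosphorylated by SMG1, marks a message for cleavage by SMG6 or for deadenylation and decapping, and m6A-modified messages are known to be handed to CCR4-NOT by the reader YTHDF2.

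The guide is shown because it defines the METTL3-KO group as labelled. Its sequence matched the chromosome that carries METTL3 at 1 place, on the minus strand at chr14:21971548-21971567 of GRCh37, within the coding part of exon 3 of the gene's Ensembl canonical transcript. The capitals mark the adjacent PAM in the genome.
METTL3 guide: ggugcuguggcagaaaagaa
METTL3 target site: ggtgctgtggcagaaaagaaGGG

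METTL3, at chr14:21966277-21979484 on the minus strand, was measured at 30.6, 30.2 and 29.2 CPM (gene counts scaled to a common library size) in WT samples 1 to 3 and at 7.26, 7.69 and 6.89 CPM in METTL3-KO samples 1 to 3. The groups did not overlap, and the METTL3-KO mean was 24.3% of the WT mean (log2 fold change -2.04, SE 0.0906, adjusted p = 1.58e-07 by the quasi-likelihood test of edgeR, adjusted by the Benjamini-Hochberg method, which was used for every gene below). These are reads over the whole gene and do not measure the protein. Between 20936091 and 30142144 counts fell on genes in each sample. Of 7 epithelial and intestinal markers, EPCAM was at 514 CPM in WT and 519 CPM in METTL3-KO on average, and CDX2 was the lowest (7.68 and 6.79 CPM). KRT19 (log2 fold change 0.82, adjusted p = 0.000134), VIL1 (0.62, 3.92e-05), KRT8 (0.36, 0.0143) and CDH1 (0.23, 0.0396) were higher in METTL3-KO. Among markers of other cell types PTPRC had at most 1 count and PECAM1, COL1A2 and ALB had none, but COL1A1 was detected at 5.42 CPM in WT and 6.99 CPM in METTL3-KO (adjusted p = 0.0803). The part of these shifts in the results below was not tested. In bulk RNA, fewer cells with a transcript and less of it per cell cannot be told apart.

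Replicate 3 of each group stood apart from the other 2 samples of that group. Over genes with at least 20 counts in a pair of samples, the mean chi-square per gene was 2.58 between WT samples 1 and 2 and 2.34 between METTL3-KO samples 1 and 2, and 8.32 to 23.1 for the pairs with replicate 3. The departures ran in opposite directions with transcript length. Among 10246 genes with a mean log2(CPM + 1) above 3, the deviation of WT sample 3 from WT samples 1 and 2 rose with the log2 length of the longest annotated transcript (Pearson's r = 0.628, Spearman's rho = 0.659 across genes), and that of METTL3-KO sample 3 fell with it (r = -0.569, rho = -0.60). Across the 48 decay genes the corresponding r was 0.771 in WT and -0.682 in METTL3-KO. These correlations are descriptions across genes that share the same libraries. SMG1, with a longest transcript of 16062 nt, lay 0.788 above its group in WT sample 3 and -0.444 from it in METTL3-KO sample 3 on the log2(CPM + 1) scale, and EXOSC4, of 1065 nt, lay -0.294 and 0.391 from its groups. Where leaving out both of these samples turned the sign of a member, changed its call or moved a called value by much, the value without them is given below.

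**Figure D1:**
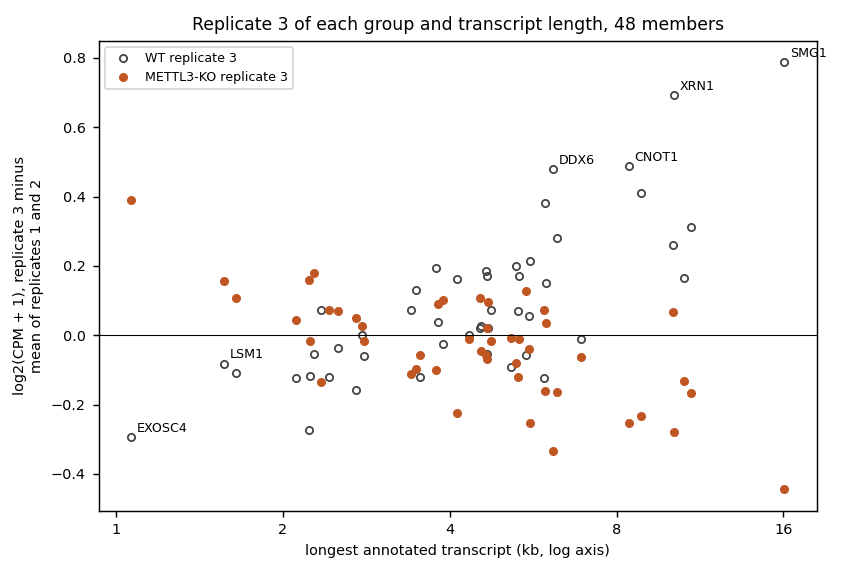
Log2(CPM + 1) of replicate 3 minus the mean of replicates 1 and 2 of its group (y axis) against the longest annotated transcript (x axis, kb, log scale), with 1 point per decay gene for WT (open) and 1 for METTL3-KO (filled). The points climb with length in WT (r = 0.771) and descend in METTL3-KO (r = -0.682).

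Of the 48 decay genes, 14 differed between METTL3-KO and WT at an adjusted p under 0.05, against 26.5% of all tested genes, with 9 lower and 5 higher. The lower genes were the deadenylases CNOT6 and CNOT6L, the exosome subunits EXOSC5 and EXOSC9, the cytoplasmic nuclease DIS3L, the Ski subunit TTC37 and the NMD factors UPF3A, UPF3B and SMG6. The higher genes were CNOT3, TOB1, EDC3, DIS3L2 and UPF2. The lower genes made up 18.8% of the members, against 13.2% of all tested genes and 20.7% of the 11040 genes at least as abundant as the least abundant member, and the higher genes made up 10.4%, against 13.3% and 20%. In either direction 40.7% of these 11040 genes passed. The members' shares were thus no larger than those of the genes above this floor of abundance, which has no upper limit. Their median log2 fold change was -0.0323, against -0.0217 over all tested genes, and single members ranged from -0.79 for CNOT6L to 0.48 for EDC3, so no member changed by as much as METTL3. The 3 METTL3-KO values lay entirely below the WT values for 12 members and entirely above them for 12, that is 25% each, against 20.7% and 20.2% of all tested genes and 27.1% and 26.9% of the abundant ones. All 14 members that passed the test were without overlap. The other 34 members had log2 fold changes between -0.21 and 0.35, and DCP1B had the lowest adjusted p among them (0.0528).

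**Figure D2:**
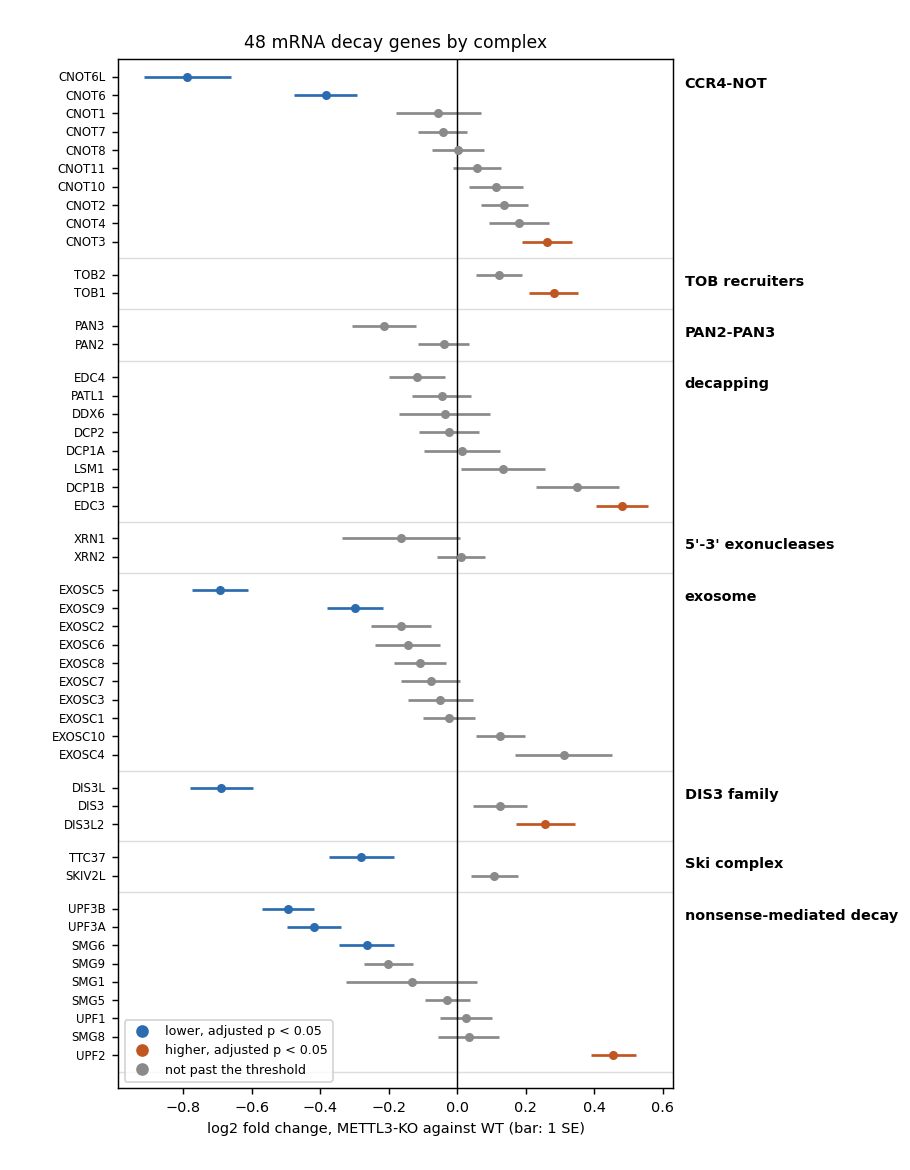
Log2 fold change of METTL3-KO over WT (x axis) of each of the 48 decay genes, grouped by complex, with bars of 1 SE and colours for the result of edgeR's test. The 9 lower and 5 higher genes are spread over the complexes, with none in PAN2-PAN3 or among the 5'-3' exonucleases.

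Deadenylation was the step with the member that fell most. CNOT6L, one of the CCR4-type catalytic subunits of CCR4-NOT (chr4:78634541-78740769), was measured at 22.3, 20.9 and 29 CPM in WT and at 14.7, 14.6 and 12.3 CPM in METTL3-KO. Every METTL3-KO sample was below every WT sample, and the mean fell by 42.1% (log2 fold change -0.79, SE 0.128, adjusted p = 0.000767). Without replicate 3 of both groups, which carried its highest and its lowest value, the log2 fold change was -0.56. Its paralogue CNOT6 (chr5:179921379-180005358), which can take the same place in the complex, had 99.7, 98.9 and 121 CPM in WT and 84.5, 84.8 and 75.5 CPM in METTL3-KO. These groups were also separate, with WT sample 3 the highest and METTL3-KO sample 3 the lowest of the 6, and the mean fell by 23.4% (log2 fold change -0.38, SE 0.0924, adjusted p = 0.00887). Without replicate 3 of both groups the value for CNOT6 was -0.23.

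The CAF1-type catalytic subunits, CNOT7 and CNOT8, gave no such difference. CNOT7 was measured at 45.5, 46.1 and 45.4 CPM in WT and at 43.8, 46.2 and 43.1 CPM in METTL3-KO (log2 fold change -0.04, SE 0.0724, adjusted p = 0.707). For CNOT8 the values were 78.0, 74.6 and 68.3 CPM against 72.1, 73.6 and 75.5 CPM (log2 fold change 0.00, SE 0.0754, adjusted p = 0.989). The groups overlapped for both genes, and without replicate 3 of both groups the values were -0.03 and -0.07. Per kilobase of the canonical transcript (RPKM), WT levels were 30.1 for CNOT8, 17.1 for CNOT6, 6.63 for CNOT7 and 2.74 for CNOT6L, so the catalytic subunit that fell most was also the least abundant of the 4. The canonical CNOT7 transcript is 6890 nt long, and its RPKM depends on that choice of transcript.

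Among the non-catalytic subunits, CNOT3, which with CNOT2 forms the NOT module of the complex, was measured at 140, 132 and 138 CPM in WT and at 167, 153 and 172 CPM in METTL3-KO. No METTL3-KO value reached down into the WT range, and the mean was 1.2-fold that of WT (log2 fold change 0.26, SE 0.0724, adjusted p = 0.0184). The call was lost without WT sample 2 (adjusted p = 0.0579), METTL3-KO sample 1 (0.0761) or METTL3-KO sample 3 (0.0669). CNOT2, the ubiquitin ligase CNOT4 and CNOT10 had values in METTL3-KO that were all above WT, at log2 fold changes of 0.14, 0.18 and 0.11, without passing the test (adjusted p = 0.165, 0.153 and 0.323). CNOT11, the partner of CNOT10 at the amino-terminal end of the scaffold, was at 0.06 with overlapping groups.

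CNOT1, the scaffold of the complex and the most abundant member by CPM, was measured at 318, 313 and 443 CPM in WT and at 367, 361 and 306 CPM in METTL3-KO. The groups overlapped only because replicate 3 of each ran against the other 2 samples. The log2 fold change was -0.05 over all samples (SE 0.125, adjusted p = 0.788) and 0.21 without replicate 3 of both groups (adjusted p = 8.81e-06). CNOT2 (0.17), CNOT3 (0.23) and CNOT4 (0.27) passed the test in that smaller comparison as well. With all samples kept and transcript length and GC content corrected for, CNOT1 stayed at -0.08 and did not pass (adjusted p = 0.36). CNOT1, DDX6 and SMG1 are singled out for this behaviour after their values had been seen.

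The TOB proteins bridge the poly(A)-binding protein and CNOT7 or CNOT8. TOB1 was measured at 91.6, 93.7 and 85.3 CPM in WT and at 114, 106 and 109 CPM in METTL3-KO, without overlap, and rose by 21.6% (log2 fold change 0.28, SE 0.0724, adjusted p = 0.0128). The call was lost without METTL3-KO sample 1 (adjusted p = 0.0693), and 11.1% of the TOB1 exon bases are shared with the antisense gene TOB1-AS1. TOB2 had 65.3, 66.0 and 65.7 CPM in WT and 70.4, 73.0 and 71.1 CPM in METTL3-KO. These groups were separate and tight, but the difference did not pass (log2 fold change 0.12, SE 0.0681, adjusted p = 0.218) except, narrowly, without replicate 3 of both groups (adjusted p = 0.0489). In the other deadenylase, the catalytic PAN2 was at -0.04 (adjusted p = 0.741) and its adaptor PAN3 at -0.21 (SE 0.0929, adjusted p = 0.115), the lowest value of any member that did not pass. Without replicate 3 of both groups PAN2 was at 0.02 and PAN3 at -0.06, whereas PAN3 passed when transcript length and GC content were corrected for (-0.22, adjusted p = 0.0115).

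Of the 8 decapping factors, 1 rose and none fell. EDC3, an enhancer of decapping that binds DCP2 and DDX6 (chr15:74922899-74988633), was measured at 46.0, 45.2 and 46.9 CPM in WT and at 66.2, 59.8 and 67.0 CPM in METTL3-KO. The METTL3-KO samples were all far above the narrow WT range, and the mean rose by 39.7% (log2 fold change 0.48, SE 0.0758, adjusted p = 0.000607). The value without replicate 3 of both groups was 0.47. Exons of EDC3 overlap those of CLK3 over 13.8% of their bases.

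The decapping enzyme itself, DCP2, had 54.8, 53.2 and 64.8 CPM in WT and 56.1, 55.4 and 58.5 CPM in METTL3-KO, with overlap (log2 fold change -0.02, SE 0.0871, adjusted p = 0.872). It was at 0.04 without replicate 3 of both groups. Its activators differed in level. DCP1A had 38.9, 36.1 and 49.1 CPM in WT and 42.3, 44.3 and 38.6 CPM in METTL3-KO, with overlap (log2 fold change 0.01, SE 0.111, adjusted p = 0.947), and passed without replicate 3 of both groups (0.20, adjusted p = 0.00779). DCP1B had 7.65, 8.18 and 6.38 CPM against 9.35, 8.78 and 10.2 CPM, without overlap but just short of the threshold (0.35, SE 0.122, adjusted p = 0.0528). It passed in 6 of the alternatives, among them other filters, other size factors and the length and GC correction, with adjusted p-values from 0.00905 to 0.0453, and was at 0.20 (adjusted p = 0.158) without replicate 3 of both groups. EDC4, the scaffold of the decapping complex, gave the lowest value of the group, -0.12 (SE 0.0816, adjusted p = 0.331), or -0.02 without replicate 3 of both groups. The bridging factor PATL1 (-0.05, and 0.08 without replicate 3) and LSM1 (0.13), the subunit specific to the cytoplasmic LSM ring, did not pass either.

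DDX6, the helicase that links CCR4-NOT to decapping, was measured at 112, 114 and 158 CPM in WT and at 139, 130 and 106 CPM in METTL3-KO. As for CNOT1, replicate 3 was the highest WT and the lowest METTL3-KO sample, and the log2 fold change of -0.04 over all samples (SE 0.133, adjusted p = 0.868) became 0.25 without it in both groups (adjusted p = 6.57e-06). Of the exonucleases that follow decapping, the cytoplasmic XRN1 behaved in the same way. Its values were 28.5, 25.7 and 44.4 CPM in WT and 32.1, 30.2 and 25.5 CPM in METTL3-KO (log2 fold change -0.16, SE 0.172, adjusted p = 0.524), with 0.20 and an adjusted p of 0.021 when replicate 3 was left out of both groups. With all samples kept and transcript length and GC content corrected for, neither passed. DDX6 was then at -0.04 (adjusted p = 0.773) and XRN1 at -0.16 (adjusted p = 0.23). XRN2, its nuclear counterpart that acts in transcription termination, had 166, 163 and 173 CPM against 175, 171 and 160 CPM, with overlapping groups (0.01, SE 0.0698, adjusted p = 0.927).

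The exosome core consists of a ring of EXOSC4 to EXOSC9 with a cap of EXOSC1 to EXOSC3. With EXOSC10 included, 8 of the 10 listed subunits had log2 fold changes below 0, and 2 of them passed the test. Of all 22452 tested genes 11630 were below 0, as were 5649 of the 11040 abundant ones. EXOSC5, a ring subunit (chr19:41892276-41903267), was measured at 48.9, 47.0 and 46.1 CPM in WT and at 28.5, 27.5 and 31.8 CPM in METTL3-KO. The gap between the groups was several times wider than the range within either, and the mean fell by 38.2% (log2 fold change -0.69, SE 0.082, adjusted p = 8.66e-05). This was the smallest adjusted p among the 48 decay genes, and the value was -0.78 without replicate 3 of both groups. Per length, EXOSC5 was the second most abundant exosome subunit in WT samples, at 47.4 RPKM after EXOSC8 at 55.7 RPKM, and in METTL3-KO it was at 29.3 RPKM.

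EXOSC9, another ring subunit, was measured at 34.2, 33.2 and 33.1 CPM in WT and at 28.1, 25.1 and 28.6 CPM in METTL3-KO. The groups were separate, and the mean fell by 18.6% (log2 fold change -0.30, SE 0.0817, adjusted p = 0.0179). The call was lost without any 1 of WT sample 1 (adjusted p = 0.0599), WT sample 2 (0.0506), METTL3-KO sample 1 (0.0509) and METTL3-KO sample 2 (0.10). The remaining ring and cap subunits did not pass over all samples, from -0.17 for EXOSC2 to 0.31 for EXOSC4 (SE 0.141, adjusted p = 0.13). EXOSC2 (-0.22, adjusted p = 0.00278) and EXOSC8 (-0.14, adjusted p = 0.0403) passed without replicate 3 of both groups, where EXOSC4 was at 0.07 (adjusted p = 0.638). EXOSC4 passed with the length and GC correction (0.33, adjusted p = 0.0181) and with no filter (0.32, adjusted p = 0.0382). EXOSC4 shares 56.7% of its exon bases with other genes in GENCODE v44lift37. Read pairs that overlapped several genes were not counted, but the authors' counting used another annotation, whose overlaps were not checked. EXOSC10, the nuclear exonuclease bound to the complex, was at 0.13 (adjusted p = 0.228).

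Human cells have 3 DIS3 nucleases, of which DIS3 joins the nuclear exosome, DIS3L the cytoplasmic one, and DIS3L2 acts alone on uridylated RNA. DIS3L (chr15:66585555-66626236) was measured at 25.0, 24.9 and 28.6 CPM in WT and at 16.9, 16.3 and 15.4 CPM in METTL3-KO, without overlap. It fell by 38.0% (log2 fold change -0.69, SE 0.0917, adjusted p = 0.000194), or -0.59 on the log2 scale without replicate 3 of both groups. DIS3L2 had 22.2, 22.0 and 25.0 CPM in WT and 28.8, 27.2 and 26.6 CPM in METTL3-KO. The groups were separate by little, and the rise of 19.5% (log2 fold change 0.26, SE 0.086, adjusted p = 0.045) passed the test only narrowly. Without WT sample 1 or 2 the adjusted p was 0.138 or 0.126, and without METTL3-KO sample 1, 2 or 3 it was 0.161, 0.101 or 0.0614. DIS3L2 passed without WT sample 3 (0.32, adjusted p = 0.00476) and without replicate 3 of both groups (0.34, adjusted p = 0.000113). DIS3, at 135, 130 and 148 CPM in WT and 159, 150 and 141 CPM in METTL3-KO, had overlapping groups (0.13, SE 0.0783, adjusted p = 0.272) and passed without WT sample 3 (0.19, adjusted p = 0.0418) and without replicate 3 of both groups (0.22, adjusted p = 2.31e-05).

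In the Ski complex, which threads messages into the cytoplasmic exosome, the scaffold TTC37 was measured at 128, 129 and 160 CPM in WT and at 119, 119 and 106 CPM in METTL3-KO. The groups were separate, again with WT sample 3 as the highest and METTL3-KO sample 3 as the lowest value, and the mean fell by 17.6% (log2 fold change -0.28, SE 0.0956, adjusted p = 0.0489). The log2 fold change was -0.12 without replicate 3 of both groups. The call was lost without WT sample 2 (adjusted p = 0.0575), WT sample 3 (0.0782) or METTL3-KO sample 1, 2 or 3 (0.102, 0.0986 and 0.159). The helicase SKIV2L had 86.6, 89.7 and 84.8 CPM in WT and 93.0, 93.8 and 94.8 CPM in METTL3-KO, without overlap and in the other direction, and did not pass (0.11, SE 0.0678, adjusted p = 0.273).

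In NMD, UPF2 rose while both of its UPF3 partners fell. UPF2, which ties UPF1 to UPF3 (chr10:11962021-12085169), was measured at 161, 163 and 168 CPM in WT and at 230, 225 and 221 CPM in METTL3-KO. No 2 samples of different groups came near each other, and the mean rose by 37.2% (log2 fold change 0.46, SE 0.0656, adjusted p = 0.000329). UPF3B, the X-linked protein that contacts the exon junction complex (chrX:118967985-118986961), had 59.2, 58.0 and 61.6 CPM in WT and 43.9, 43.5 and 39.7 CPM in METTL3-KO. Its groups were separate, and it fell by 28.9% (log2 fold change -0.49, SE 0.0759, adjusted p = 0.000527).

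UPF3A, the autosomal paralogue of UPF3B (chr13:115047076-115071292), was measured at 62.3, 58.6 and 55.6 CPM in WT and at 45.2, 41.4 and 45.5 CPM in METTL3-KO. The groups were separate, and it fell by 25.1% (log2 fold change -0.42, SE 0.0788, adjusted p = 0.00202). The values of UPF2, UPF3B and UPF3A without replicate 3 of both groups were 0.49, -0.43 and -0.48. UPF3A has processed copies elsewhere in the genome, and reads that fit several places were not counted, so its level is uncertain by the reads shared with them. Of 3 such copies, UPF3AP1 had 157 to 226 counts in WT samples and 135 to 173 in METTL3-KO samples and was lower (log2 fold change -0.38, adjusted p = 0.0397). UPF3AP2 was at -0.11 with overlapping groups (adjusted p = 0.547), and UPF3AP3, with at most 9 counts in a sample, did not pass (adjusted p = 0.519).

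SMG6, the endonuclease that cuts NMD targets, was measured at 38.2, 37.9 and 42.4 CPM in WT and at 33.7, 31.5 and 33.4 CPM in METTL3-KO. It fell by 16.7%, with no overlap (log2 fold change -0.26, SE 0.0802, adjusted p = 0.0292). The call was lost without WT sample 2 (adjusted p = 0.0512) or METTL3-KO sample 1, 2 or 3 (0.0766, 0.123 and 0.0589), and 24.7% of the SMG6 exon bases overlap other genes. SMG9, a regulator of SMG1, had 108, 111 and 105 CPM against 90.9, 91.1 and 99.5 CPM and missed the threshold without overlap (-0.20, SE 0.0716, adjusted p = 0.0572). It passed without WT sample 3 (adjusted p = 0.0136), METTL3-KO sample 3 (0.049) or both (-0.27, 3.19e-06), with edgeR's default filter (0.0345) and with the length and GC correction (0.00384). The other SMG1 regulator, SMG8 (0.03), the adaptor SMG5 (-0.03) and the helicase UPF1 (0.03) had overlapping groups and adjusted p-values of 0.823, 0.793 and 0.831.

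SMG1, the kinase of UPF1 and the longest transcript among the members, was measured at 182, 185 and 317 CPM in WT and at 237, 220 and 167 CPM in METTL3-KO. Replicates 1 and 2 of METTL3-KO were above those of WT, and replicate 3 was the highest WT and the lowest METTL3-KO value. The log2 fold change was -0.13 over all samples (SE 0.191, adjusted p = 0.653) and 0.31 without replicate 3 of both groups (adjusted p = 5.12e-09). With all samples kept and transcript length and GC content corrected for, it was -0.14 and did not pass (adjusted p = 0.237). The SMG1 family includes near-identical copies on the same chromosome. Reads that fit several places were not counted, so the level of SMG1 is uncertain by the reads shared with these copies. The mRNAs of UPF1, UPF2, UPF3B, SMG1, SMG5 and SMG6 are themselves known targets of NMD. In METTL3-KO, 1 of these 6 rose, 2 fell and 3 did not pass.

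**Figure D3:**
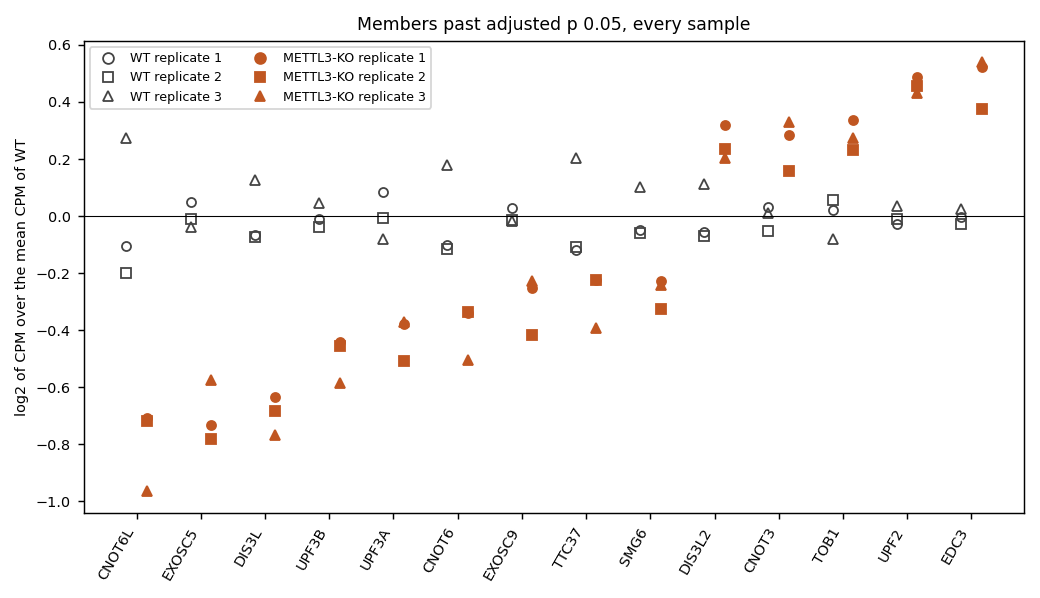
Log2 of CPM over the WT mean of the same gene (y axis) in each of the 6 samples, for the 14 decay genes that passed the test, ordered by fold change (x axis), with open symbols for WT, filled ones for METTL3-KO and a shape for each replicate. The groups do not overlap for any of these genes, from CNOT6L (20.9 to 29 CPM in WT, 12.3 to 14.7 CPM in METTL3-KO) to EDC3 (45.2 to 46.9 CPM and 59.8 to 67.0 CPM).

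Of the 14 members that passed the test, 8 passed again whichever of the 6 samples was left out. They were CNOT6, CNOT6L, EXOSC5, DIS3L, UPF3A, UPF3B, EDC3 and UPF2. All 14 kept their sign and passed without replicate 3 of both groups, where 12 members were lower and 14 higher. That comparison rests on replicates 1 and 2, which differed least, and in it 4823 and 4555 of all tested genes were lower and higher.

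**Figure D4:**
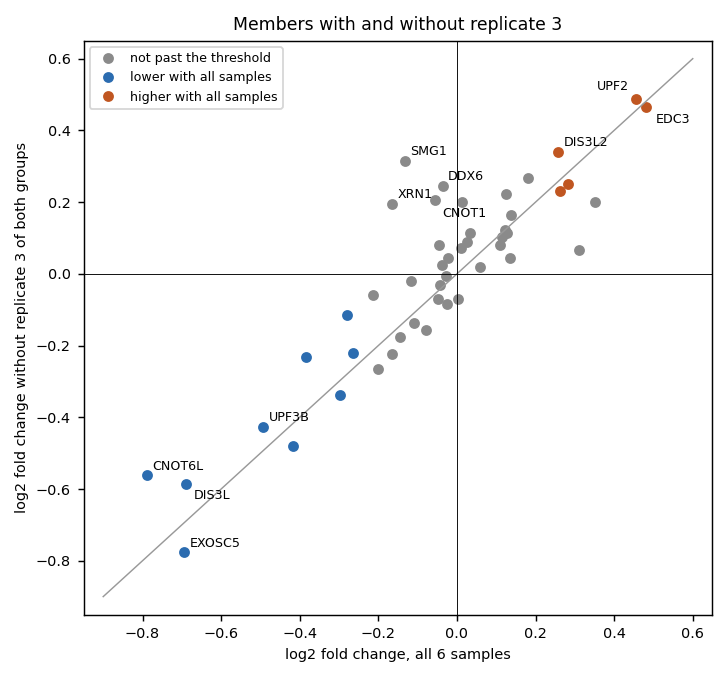
Log2 fold change of each decay gene without replicate 3 of both groups (y axis) against that over all 6 samples (x axis), coloured by the result over all samples, with a diagonal line of equal values. EXOSC5 (-0.69 and -0.78) and UPF2 (0.46 and 0.49) lie near the diagonal, and SMG1 (-0.13 and 0.31), CNOT1, DDX6 and XRN1 lie above it with a change of sign.

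Because several of these enzymes exist as paralogues of which 1 occupies a site, 8 ratios of paralogue counts were compared between the groups within each sample, which removes the scaling of the libraries. The log2 ratio of DIS3L to DIS3 was -2.43, -2.38 and -2.37 in WT and -3.23, -3.20 and -3.19 in METTL3-KO, a difference of -0.81. Per length, DIS3L went from 53.2% to 30.3% of the DIS3 level. These percentages depend on the canonical transcripts, of 3780 nt for DIS3L and 10571 nt for DIS3. The groups were separate, as they were for CNOT6L to CNOT6, with a log2 ratio of -2.15 ± 0.0901 (SD, n = 3) in WT and -2.56 ± 0.0492 (SD, n = 3) in METTL3-KO, or 15.9% and 12.1% per length.

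The ratios of TOB2 to TOB1 and of DIS3L2 to DIS3 also differed without overlap, by -0.16 and 0.13. For each of these 4 ratios the two-sided exact permutation test gave p = 0.1, the smallest that 3 samples against 3 allow, and 0.2 after Benjamini-Hochberg adjustment over the 8 ratios, so none can pass 0.05 in this design. The ratios of CNOT8 to CNOT7, DCP1B to DCP1A, XRN2 to XRN1 and UPF3B to UPF3A had overlapping groups (exact permutation p = 0.5, 0.4, 0.9 and 0.5). UPF3A and UPF3B were at nearly equal levels in both groups, with UPF3B at 103% of UPF3A per length in WT and 97.5% in METTL3-KO. XRN2 exceeded XRN1 in WT, at 167 against 32.9 CPM and 49.1 against 3.26 RPKM. Their canonical transcripts are 3408 and 10079 nt long, and the RPKM depend on that choice of transcript.

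**Figure D5:**
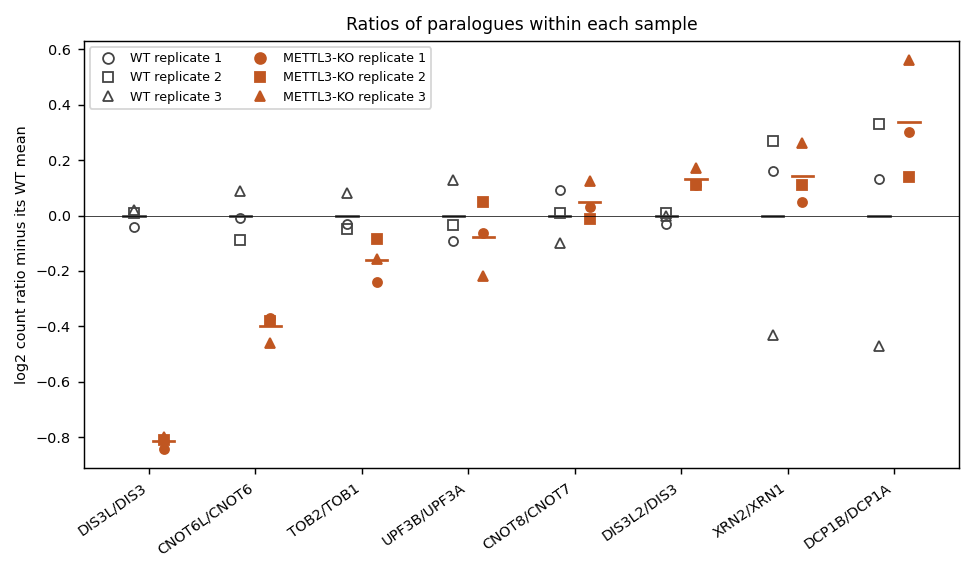
Log2 ratio of the counts of 2 paralogous decay genes minus its WT mean (y axis) for 8 pairs (x axis), with 1 symbol per sample, open for WT and filled for METTL3-KO, and a line at each group mean. DIS3L to DIS3 shows the widest gap (-0.81), followed by CNOT6L to CNOT6 (-0.40), and the samples of both groups overlap for UPF3B to UPF3A, CNOT8 to CNOT7, XRN2 to XRN1 and DCP1B to DCP1A.

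Of 61 further cofactors of these complexes, 60 were tested, with 9 lower (15%) and 13 higher (21.7%) in METTL3-KO, against 13.2% and 13.3% of all tested genes and 20.7% and 20% of the abundant ones, and a median log2 fold change of -0.0086. The largest falls were in BTG2, a relative of the TOB proteins, and in RBM8A and RNPS1, which belong to the exon junction complex. BTG2 was measured at 45.6, 46.4 and 40.7 CPM in WT and at 18.0, 20.7 and 21.5 CPM in METTL3-KO, without overlap (log2 fold change -1.14, SE 0.0935, adjusted p = 7.06e-06). RNPS1, a peripheral junction protein that stimulates NMD, had 79.5, 79.3 and 79.4 CPM against 44.8, 45.5 and 44.1 CPM (-0.83, SE 0.0689, adjusted p = 8.03e-06). Both groups were tight and far apart. RBM8A, a core junction protein, fell by 0.97 on the log2 scale (adjusted p = 1.35e-05), and ZCCHC8, a partner of the nuclear exosome, and NUDT16, a nuclear decapping enzyme, were at -0.41 and -0.39. Relatives and partners of these genes, picked out after their values were seen, did not all follow. BTG1, the close relative of BTG2, rose by 0.36 (adjusted p = 0.00273), and of the other core junction genes MAGOHB rose by 0.24 (adjusted p = 0.048), while MAGOH (0.02), EIF4A3 (-0.18) and CASC3 (-0.18) did not pass (adjusted p = 0.906, 0.14 and 0.137).

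On the other side, the terminal uridylyltransferase ZCCHC6 rose by 0.67 (SE 0.106, adjusted p = 0.000628), the CCR4-NOT-associated TNKS1BP1 by 0.53 (SE 0.0669, adjusted p = 0.000132) and the non-canonical poly(A) polymerase PAPD5 by 0.53 (SE 0.0884, adjusted p = 0.000928) on the log2 scale. YTHDF2, the m6A reader named above, rose by 0.38 (SE 0.0692, adjusted p = 0.00173), and so did ZFP36L2, which recruits CCR4-NOT to AU-rich messages (0.38, SE 0.0718, adjusted p = 0.00222).

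Among 14 transcripts known to be held down by NMD, 3 were lower in METTL3-KO (21.4%) and 1 was higher (7.14%), against the same shares of all genes and of abundant genes as above, with a median log2 fold change of -0.10. The lower ones were the small nucleolar RNA hosts SNHG15 (-0.49, SE 0.0799, adjusted p = 0.00077) and SNHG1 (-0.42, SE 0.0729, adjusted p = 0.0012) and the stress gene GADD45A (-0.37, SE 0.0924, adjusted p = 0.0111). GADD45A lost its call without WT sample 1 (adjusted p = 0.0544) or METTL3-KO sample 1 or 2 (0.0574 and 0.0628). TBL2 rose, from 55.2, 59.0 and 55.9 CPM to 79.7, 75.3 and 86.0 CPM (0.50, SE 0.0771, adjusted p = 0.000517). These are steady-state levels, and decay rates were not measured.

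Promoter sequences of RefSeq (GRCh38.p14, reaching from upstream of each gene start to shortly after it) were found for 42 of the 48 members and were searched on both strands for 5 motifs. The ETS motif CCGGAAG was in 16.7% of the members' promoters and in 10.7% of 27305 promoters, the NRF1 motif in 4.76% and 1.36%, the YY1 motif AAGATGGCG in 7.14% and 1.85%, the NFY motif CCAAT in 38.1% and 35.7%, and the E2F motifs TTTGGCGC or TTTCCCGC in 2.38% and 2.31%. The NRF1, YY1 and E2F shares of the members rest on 2, 3 and 1 of 42 promoters. The 27305 promoters were not limited to genes expressed in these cells. A match describes letters in a window and not a bound site. No overlap between the motifs was removed. Windows of 30 bases around a match (capitals) are shown for 4 of the members described above, EDC3 and UPF2, which rose, and EXOSC5 and UPF3B, which fell. Those of UPF2, EXOSC5 and UPF3B share CCAAT, which was in the promoters of 4 of 9 lower and 2 of 5 higher members. The ETS motif was in 1 of 9 and 2 of 5. A link between motif and change was not tested. All 4 windows are on the minus strand of GRCh38.p14, at chr15:74696040-74696069 for EDC3, chr10:12043220-12043249 for UPF2, chr19:41397497-41397526 for EXOSC5 and chrX:119853046-119853075 for UPF3B.
EDC3: caaggtgtcgcgCCGGAAGtgacctcacgg
UPF2: cctttcctggcgaCCAATccacttcctgcc
EXOSC5: tgttcccaaatgtCCAATggcgttgccaga
UPF3B: agcttggcaggacCCAATggaacgtggggc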

How the data were processed

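Total RNA of 6 HCT116 samples was sequenced from unstranded TruSeq libraries as paired reads. The authors mapped the reads to hg19 with TopHat (TopHat2 2.0.11 in the submitters' processing notes) and counted pairs per symbol with htseq-count (union mode). What was deposited are raw counts, without pairs that overlapped several genes or aligned to several places. Counters that name no gene were left out (6.03% to 9.08% of records with no feature, 7.95% to 8.77% ambiguous, 13.4% to 14.7% not unique).

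Symbols with fewer than 5 counts in total in both groups were removed. METTL3-KO was compared with WT over all remaining symbols by edgeR's quasi-likelihood test (edgeR 4.0.16, R 4.3.3) with TMM normalization, two-sided, with Benjamini-Hochberg adjustment over all tested symbols and a threshold of 0.05. SEs were computed as the absolute log2 fold change over the root of F. CPM use TMM-scaled library sizes, and RPKM divide them by the length of the Ensembl canonical transcript in GENCODE v44lift37 (GRCh37). The test was also run on counts simulated with the same spread for every gene, and the outcome of that run is not used here. A count of 0.5 was added to both sides of paralogue ratios. The fewest counts of a member in a sample were 109, and counts cover counting error only.

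The members, the cofactor and NMD lists, the alternatives and the naming rule were chosen with earlier results of these data known. Full statistics were given to members that passed the test, to the highest and lowest member of each complex and to both genes of each paralogue pair, and up to 5 cofactors or NMD-sensitive transcripts in each direction were named. The deposited count tables name the groups NC and SiM3 and, for WT, carry other replicate numbers than the labels, and the labels were followed. Alternatives were DESeq2 1.42.0, its size factors within edgeR, other filters, the replicate number as a block, a spline correction (5 degrees of freedom) for transcript length and GC content, and leaving out samples.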

Additional observations from a re-analysis of the deposited data

How the results depend on the processing

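With DESeq2, with its size factors, with edgeR's default filter and with no filter, the numbers of members called stayed within 1.5 times of 9 lower and 5 higher. With the replicate block they were 5 and 2, those of all genes 1719 and 1810, and 6 cofactors were higher. Of the 14 called members 7 kept their call with the block, and CNOT6 was among those that lost it (adjusted p = 0.0641). Deviations of same-numbered samples from their group means correlated at -0.583, -0.39 and -0.784, and no sample correlated best with its own number. The opposite departures of replicate 3 enter these correlations. They therefore cannot tell whether samples with the same number shared a batch. With the length and GC correction 11 members were lower and 9 higher, and 5 NMD-sensitive transcripts were lower. The counts over all tested genes with this correction are not given here, so these counts are not a result about the members. The CCR4-NOT median was then 0.0516 (0.0526 with the block as well).

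Leaving out 1 sample gave 1976 to 3793 lower and 2188 to 3809 higher genes among all tested genes. The same fits gave 6 to 9 lower and 2 to 7 higher members. They gave 7 to 14 lower and 8 to 17 higher cofactors, and 2 to 6 lower NMD-sensitive transcripts. Medians were 0.0319 to 0.0818 for CCR4-NOT, -0.0594 to 0.127 for decapping and -0.20 to -0.0106 for NMD. Without replicate 3 of both groups, 4823 genes were lower and 4555 higher, among them 14 higher members, 20 lower and 22 higher cofactors, and 8 lower and 2 higher NMD-sensitive transcripts. The medians were then 0.06 (CCR4-NOT), -0.0177 (PAN2-PAN3), 0.14 (decapping), 0.133 (5'-3' exonucleases), -0.146 (exosome), 0.224 (DIS3 family), -0.0172 (Ski) and -0.00472 (NMD), and the ratio differences -0.04 (CNOT8 to CNOT7), -0.0119 (DCP1B to DCP1A), -0.127 (XRN2 to XRN1) and 0.0586 (UPF3B to UPF3A). The cause was not tested.

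Signs turned for genes near 0 or with a distant replicate 3. Without replicate 3 of both groups PAN2 was at 0.0243, XRN1 at 0.196, CNOT8 at -0.0704, SMG1 at 0.315, CNOT1 at 0.205, DDX6 at 0.246, DCP2 at 0.0436 and PATL1 at 0.0807. Leaving out 1 sample gave -0.0744 to 0.00343 for PAN2, -0.298 to 0.113 for XRN1, -0.0121 to 0.0502 for XRN2, -0.0631 to 0.155 for DCP1A, -0.0468 to 0.0458 for CNOT8, -0.268 to 0.186 for SMG1, -0.131 to 0.131 for CNOT1, -0.121 to 0.147 for DDX6, -0.002 to 0.0925 for the CNOT8 to CNOT7 ratio and -0.0688 to 0.279 for XRN2 to XRN1. DCP1A was at -0.00606 with the length and GC correction and -0.00222 with the block as well.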
